A study of Mus musculus with 22 samples.

Results

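Kinesins are motor proteins that walk along microtubules, tubulins are the subunits from which microtubules are built, and tubulin ligases of the TTLL family attach glutamate or glycine residues to tubulin tails. The genes described here are all those whose symbols mark them as a kinesin (Kif), an alpha, beta or gamma tubulin (Tuba, Tubb, Tubg) or a TTLL ligase (Ttll), 70 of the 28711 features in the deposited normalised table. They were sorted by role into 13 mitotic kinesins, 18 transport kinesins, 10 other kinesins, 6 alpha tubulins, 8 beta tubulins, 2 gamma tubulins, 10 ligases and 3 pseudogenes or antisense RNAs. The RNA came from first mandibular molars of mice at postnatal days 11 and 5 (P11 and P5). Heterozygotes (Het, Tgfbr2 G357W/+) carried 1 mutated copy of the TGF-beta receptor type II gene, as a model of Loeys-Dietz syndrome, and their littermates (WT, Tgfbr2 +/+) carried none. The 22 libraries were 5 P11 Het, 5 P11 WT, 6 P5 Het and 6 P5 WT.

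Mitotic kinesins push spindle poles apart, move chromosomes and assemble the midzone at which a dividing cell is cut. Transport kinesins carry vesicles, organelles and ciliary cargo, and the kinesin-1 heavy chains among them do so with light chains that bind cargo. Enamel-forming ameloblasts and dentin-forming odontoblasts are tall, polarised cells whose secretory vesicles travel along microtubules, and ameloblasts pass from a secretory to a maturation stage as enamel hardens. Different tubulin isotypes and tail modifications give microtubules different stability and different affinity for motors.

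Library totals ran from 32904047 to 45343814 counts, of which the 70 genes took 0.176 to 0.222%, and levels are given as TMM-scaled CPM, a gene's count relative to the scaled total of its library. Tests were edgeR's quasi-likelihood test over 21510 genes, 65 of the 70 among them, and a gene was called where its Benjamini-Hochberg adjusted p was under 0.05. The series text speaks of 5 Het mice and 8 WT mice, a smaller number than that of libraries. Nothing ties libraries to animals, so p-values measure only the spread between libraries. P5 Het replicate 6 is P5 in its title and library name and P11 in its tissue field, and its 26.7 CPM of Ttll11 and 1.85 CPM of Ttll7 lay inside the ranges of the other P5 Het libraries. Tooth markers were high in all libraries: Amelx, an enamel matrix gene, had 593 to 4450 CPM at P11 and 30200 to 47000 CPM at P5, and the dentin gene Dspp had 709 to 1550 CPM at P11 and 2500 to 3280 CPM at P5. Summed oral keratinocyte markers were 98.6 to 1790 CPM at P11 and 13.7 to 31.8 CPM at P5, with 12 of 12 tested markers called higher at P11 in each genotype. Their sum was highest in P11 Het replicate 2 at 1060 CPM, P11 WT replicate 4 at 1790 CPM and P11 WT replicate 5 at 854 CPM. Muscle markers summed to 152 CPM in P11 Het replicate 2 and 88.1 CPM in P5 Het replicate 5. Library names at P11 begin with 1 (replicates 1 to 3 of each genotype) or 2 (replicates 4 and 5), a number whose meaning the labels do not give. Those at P5 begin with 3, 4 or 5, and 5 occurs only in P5 Het replicates 5 and 6. No number occurs at both ages, so age and this number cannot be told apart. Results are given with and without 5 libraries where that changed a call. These were P11 Het replicate 2, P11 WT replicates 4 and 5, and P5 Het replicates 4 and 5. P5 Het replicate 4 was the P5 library with the highest oral keratinocyte sum.

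Levels of different genes were compared per kilobase of annotated exon. Tubb5, the class I beta tubulin of most dividing cells, stood highest in every group, with 121 CPM per kb in P11 Het, 119 in P11 WT, 107 in P5 Het and 112 in P5 WT molars. Tuba1a, the alpha tubulin that dominates in young neurons, had 61.9 CPM per kb in P11 Het, 66.2 in P11 WT, 86.9 in P5 Het and 95.8 in P5 WT molars. Among transport kinesins, Kif5b, the kinesin-1 heavy chain found in most tissues, was highest with 13.9, 14.8, 11.6 and 10.8 CPM per kb in the same group order. Of the mitotic kinesins, Kif20a had 4.36, 3.99, 2.91 and 2.98 CPM per kb in that order, the highest in all groups but P5 WT, where Kif22 had 3. Ttll10, a ligase known to lengthen glycine chains, had 5.68, 4.86, 7.24 and 7 CPM per kb, the highest of the ligases in all groups but P5 Het, where Ttll11 had 7.49. Of the 100-base stretches of Kif20a 27.4% are shared with Cdc23, which overlaps its exons, so its level may hold reads of that gene in unstranded libraries.

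Most of the genes differed between the ages. In Het molars 31 of the 65 tested genes were called higher at P11 than at P5, 12 were called lower and 22 were not called; in WT molars 26 were higher, 14 lower and 25 not called. Over all genes tested, 47.8% were called in Het (24.4% higher, 23.4% lower) and 49.4% in WT (24.8% higher, 24.7% lower), against 47.7% higher and 18.5% lower of the 65 genes in Het and 40% higher and 21.5% lower in WT. The median log2 fold change of the 65 was 0.28 in Het and 0.18 in WT, where that of all genes was close to 0. The comparisons in Het and in WT share no library, but they come from 1 fit with a shared estimate of the spread. In both, 25 genes were called higher (80.6% of those in Het, 96.2% of those in WT) and 11 lower (91.7% and 78.6%). In opposite directions 0 were called. The share of all genes called in both genotypes was not counted, so this overlap is not read as particular to these genes. Without the 5 libraries named above the counts were 30 higher and 14 lower in Het, and 24 higher and 15 lower in WT. In bulk tissue, fewer cells of a type and less RNA per cell cannot be told apart.

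**Figure D1:**
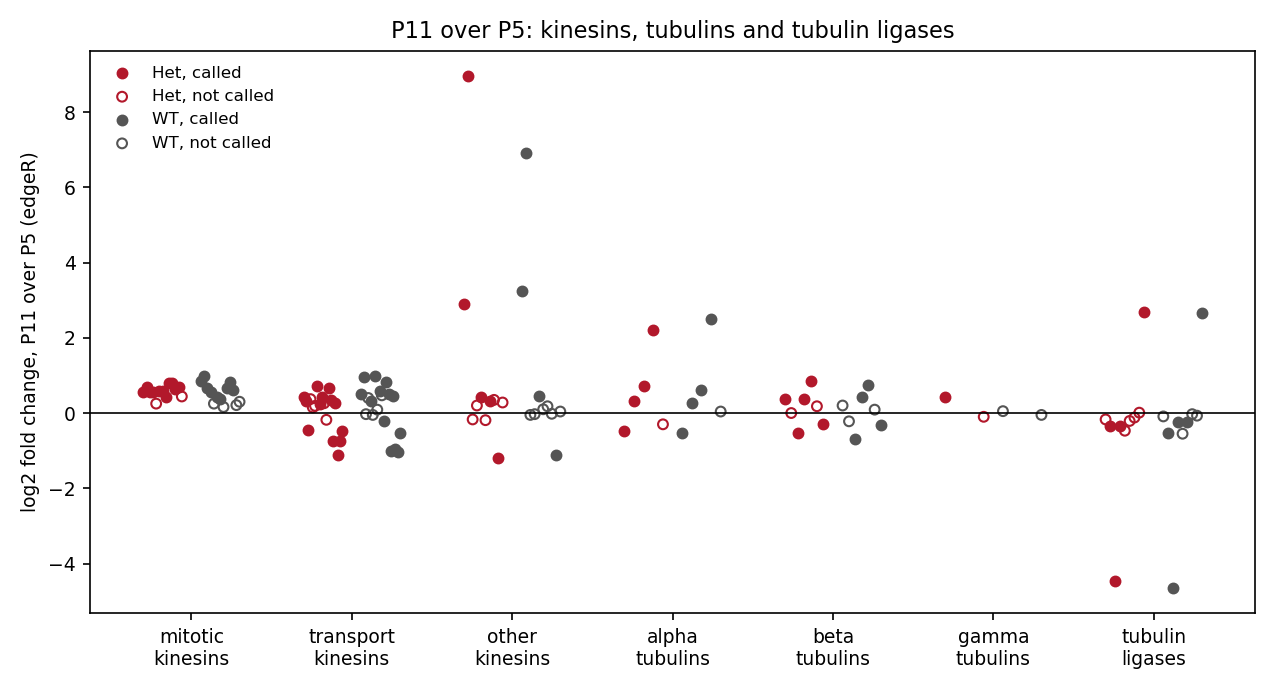
Log2 fold change of P11 over P5 for each tested gene (vertical axis) by role (horizontal axis), with Het left of WT in each role; filled points were called at an adjusted p under 0.05 and open points were not. All 13 mitotic kinesins lie above 0 in both genotypes, the transport kinesins and tubulins lie on both sides, and among the ligases Ttll7 (2.69 in Het, 2.67 in WT) and Ttll11 (-4.46 in Het, -4.64 in WT) stand far apart.

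The mitotic kinesins were higher at P11. All 13 had a positive log2 fold change in both genotypes, 11 were called higher in Het (median log2 fold change 0.58) and 9 in WT (median 0.55), and 0 were called lower. Their summed level was 138 ± 14.3 CPM in P11 Het and 92.6 ± 5.83 CPM in P5 Het molars, and 145 ± 8.47 CPM in P11 WT and 101 ± 5.7 CPM in P5 WT molars (SD, n = 5 at P11 and 6 at P5). The lowest P11 library, at 125 CPM, stood above the highest P5 library, at 109 CPM. For Kif11, Kif15, Kif20a, Kif23 and Kif4 every P11 library lay above every P5 library, 38.5% of the 13 against 10.9% of all genes tested.

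The promoters of these genes share short motifs, which the age comparison did not use. The letters TTTGAA are the core of the cell cycle genes homology region, an element known from promoters of genes expressed around mitosis, where it often lies near CCAAT. In RefSeq promoter windows of 300 bases on GRCm38.p6 (250 before the start and 50 from it on), searched on both strands, TTTGAA occurred in 11 of the 12 mitotic kinesins with a window used here (91.7%). It occurred in 1 of 11 transport kinesins (9.09%), in 0 of 8 ligases and in 20.2% of 27025 genes. CCAAT occurred in 8 of the 12 mitotic kinesins (66.7%) against 41.1% of genes, and CCAAT together with TTTGAA or TTCGAA in 8 of 12 (66.7%) against 8.61% (no place can match both TTTGAA and TTCGAA). Kif18a had no TTTGAA in its window. A match describes letters in the window only. The 130 bases from 100 before the start to 30 from it on are printed 5′ to 3′ for 6 mitotic kinesins, and for Kif3b, a transport kinesin with CCAAT alone, and Ttll7, a ligase with neither, as contrasts. Capitals mark TTTGAA or its reverse complement TTCAAA, and CCAAT or its reverse complement ATTGG.
Kif11, chr19:37376282-37376411, + strand: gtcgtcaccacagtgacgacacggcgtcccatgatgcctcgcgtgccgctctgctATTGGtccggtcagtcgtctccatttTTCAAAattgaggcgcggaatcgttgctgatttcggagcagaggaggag
Kif23, chr9:61946770-61946899, - strand: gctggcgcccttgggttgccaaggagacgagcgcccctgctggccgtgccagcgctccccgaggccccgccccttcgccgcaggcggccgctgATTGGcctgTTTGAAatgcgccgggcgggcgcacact
Kif4, chrX:100625965-100626094, + strand: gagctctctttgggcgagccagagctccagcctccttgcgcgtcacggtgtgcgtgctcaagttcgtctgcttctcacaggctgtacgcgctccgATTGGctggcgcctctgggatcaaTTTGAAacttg
Kif22, chr7:127042391-127042520, - strand: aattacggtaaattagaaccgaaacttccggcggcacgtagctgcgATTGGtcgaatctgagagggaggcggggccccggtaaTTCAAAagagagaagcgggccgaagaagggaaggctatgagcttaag
Kif15, chr9:122950981-122951110, + strand: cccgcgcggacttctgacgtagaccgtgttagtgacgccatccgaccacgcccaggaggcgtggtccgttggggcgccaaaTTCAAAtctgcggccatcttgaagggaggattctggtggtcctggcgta
Kifc1, chr17:33890604-33890733, - strand: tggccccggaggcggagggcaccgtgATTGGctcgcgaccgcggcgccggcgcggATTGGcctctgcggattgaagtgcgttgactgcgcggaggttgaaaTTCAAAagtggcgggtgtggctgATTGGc
Kif3b, chr2:153291316-153291445, + strand: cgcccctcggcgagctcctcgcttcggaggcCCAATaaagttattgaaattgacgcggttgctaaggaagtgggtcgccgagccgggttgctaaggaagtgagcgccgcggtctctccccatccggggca
Ttll7, chr3:146852267-146852396, + strand: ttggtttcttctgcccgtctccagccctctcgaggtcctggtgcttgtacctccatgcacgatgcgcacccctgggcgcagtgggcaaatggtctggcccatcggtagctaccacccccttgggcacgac

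Kif11 (chr19:37376403-37421859, + strand, GRCm38), the motor that slides spindle poles apart, had 21.5, 17.9, 19.2, 24.4 and 20.7 CPM in the 5 P11 Het libraries, against 12.7 CPM at the lowest, 13.9 at the median and 16.5 at the highest in P5 Het. In WT it had 24.7, 20.5, 30.2, 22.1 and 20.8 CPM at P11, against 11.4, 12.5 and 15.8 CPM (lowest, median, highest) at P5. The ages did not overlap in either genotype, and P11 WT replicate 3 was the highest of all 22 libraries. The log2 fold change was 0.55 ± 0.11 (SE, adjusted p = 0.000232) in Het and 0.85 ± 0.11 (adjusted p = 7.57e-07) in WT, a 1.46-fold and a 1.8-fold higher level.

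Kif23 (chr9:61915905-61946774, - strand), a subunit of the centralspindlin complex of the midzone, had 13.1, 11.7, 11.6, 11.8 and 10.9 CPM in P11 Het, against 5.85, 6.53 and 8.37 CPM (lowest, median, highest) in P5 Het. Its WT values were 14.1, 11.6, 13.6, 11.8 and 10.5 CPM at P11, against 6.51, 7.28 and 9.38 CPM at P5. Its ages did not overlap, and the level was 1.73-fold higher in Het (adjusted p = 2.31e-06) and 1.59-fold higher in WT (adjusted p = 1.86e-05). Kif20a, which brings the chromosomal passenger complex to the midzone, averaged 18.9 ± 1.89 CPM in P11 Het and 12.6 ± 0.872 CPM in P5 Het, and 17.3 ± 1.58 CPM in P11 WT and 12.9 ± 1.34 CPM in P5 WT, on counts that share stretches with Cdc23. Kif4, a chromosome-bound motor with 15% of its stretches shared with Pdzd11, rose by 0.64 ± 0.13 in Het and 0.61 ± 0.13 in WT on the log2 scale, and Kif15, which can stand in for Kif11, rose by 0.56 ± 0.13 and 0.66 ± 0.13. Kif14 and Kif2c, a cytokinesis motor and a microtubule depolymeraser, had the largest called changes in WT (0.98 ± 0.2 for Kif14) and in Het (0.79 ± 0.19 for Kif2c, level with Kif23 at 0.79 ± 0.11).

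Some mitotic kinesins passed the test in 1 genotype or in neither. Kif22, a chromosome-arm motor, averaged 17.1 ± 1.83 CPM in P11 Het and 12.7 ± 1.01 CPM in P5 Het (log2 fold change 0.43 ± 0.1, adjusted p = 0.000975). In WT it averaged 16.4 ± 1.41 CPM at P11 and 14.7 ± 2.33 CPM at P5 (0.16 ± 0.1, adjusted p = 0.211). Kifc1, a minus-end motor that focuses spindle poles, had a log2 fold change of 0.69 ± 0.15 (adjusted p = 0.000398) in Het and 0.21 ± 0.15 (adjusted p = 0.252) in WT. The difference between the genotypes in the age effect was not called for either gene. Kif18b, which trims astral microtubules, had 0.25 ± 0.16 in each genotype (adjusted p = 0.218 in Het, 0.227 in WT). Kifc5b, a near copy of Kifc1, had 0.44 ± 0.2 and 0.3 ± 0.2 (adjusted p = 0.08 and 0.232). Of the 100-base stretches of Kifc1 transcripts, 23.7% also occur in another gene's transcripts, and of those of Kifc5b 21.2%, so counts of this pair are uncertain. In WT, Kif20b, another cytokinesis motor, was called at 0.36 ± 0.12 (adjusted p = 0.0136) and without the 5 libraries it had 0.32 ± 0.13 (adjusted p = 0.0604). In Het, Kif18b was called without P11 Het replicate 3 (0.38, adjusted p = 0.0488). Kifc5b was called in Het without P5 Het replicate 6 or without P11 Het replicate 3.

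**Figure D2:**
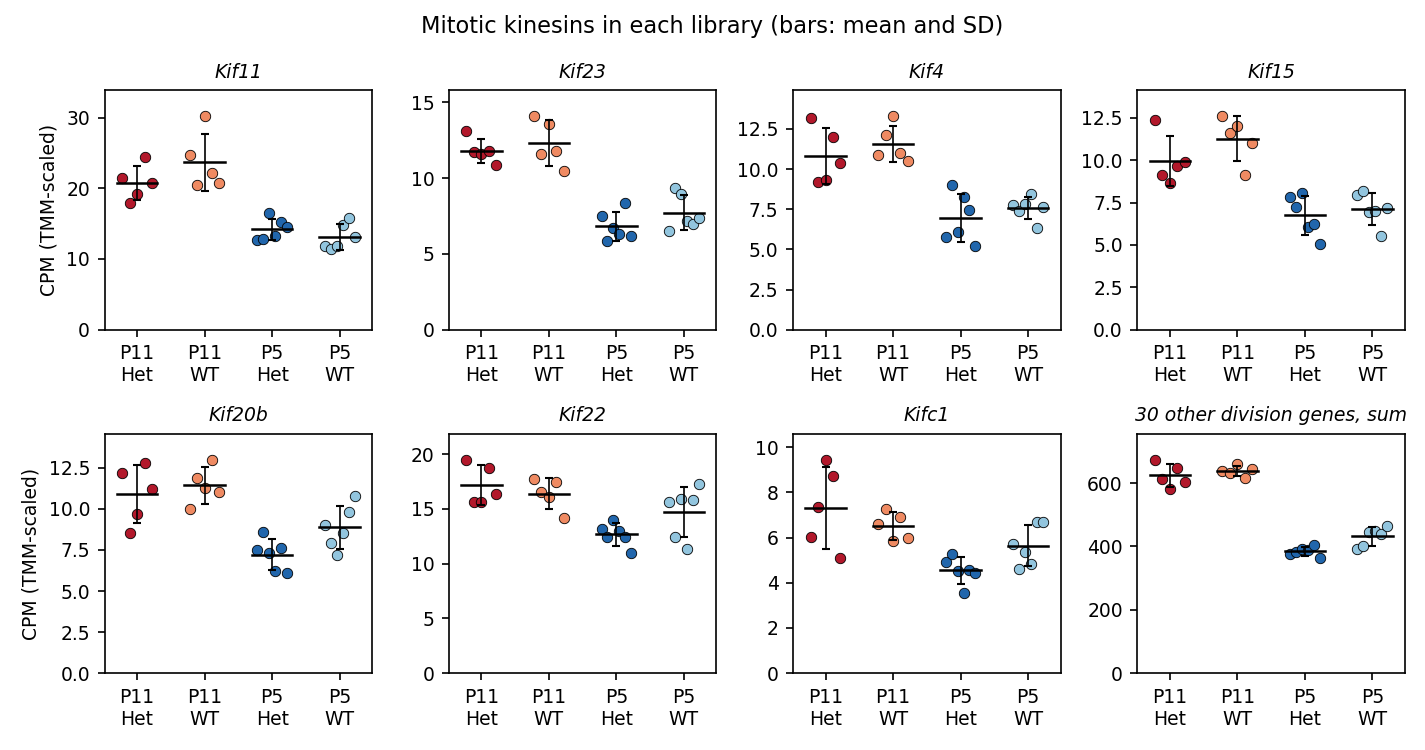
CPM (vertical axes, each with its own upper limit) of Kif11, Kif23, Kif4, Kif15, Kif20b, Kif22 and Kifc1 and the summed CPM of 30 other division genes, in P11 Het, P11 WT, P5 Het and P5 WT libraries. Points are libraries and bars give the mean and SD. P11 libraries of Kif11 lie between 17.9 and 30.2 CPM, above the P5 libraries at 11.4 to 16.5 CPM.

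Division genes outside the kinesins moved the same way. Of 30 spindle and division genes, 29 were called higher at P11 in Het and 27 in WT, and 0 were called lower. Birc5, a chromosomal passenger subunit, had log2 fold changes of 1.03 ± 0.07 in Het and 0.78 ± 0.07 in WT, Top2a, which untangles DNA, 0.86 ± 0.06 and 0.65 ± 0.06, and Mki67, a proliferation marker, 0.8 ± 0.1 and 0.85 ± 0.1. The 30 genes summed to 582 to 674 CPM in P11 Het and 362 to 406 CPM in P5 Het libraries, and to 615 to 660 CPM in P11 WT and 391 to 463 CPM in P5 WT libraries. Markers of other cells also rose at P11, with 9 of 9 tested erythroid markers (179 to 419 CPM summed at P11, 53.9 to 99 CPM at P5) called higher in each genotype. So were 9 of 10 osteoclast markers (279 to 468 CPM, against 43.2 to 85.3 CPM). The part of these cells in the rise of mitotic kinesins was not tested. Without the 5 libraries named above, 11 mitotic kinesins were called higher in Het and 8 in WT.

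Transport kinesins were called in both directions. Of 18, 8 were called higher (44.4%) and 5 lower (27.8%) at P11 in each genotype, with a median log2 fold change of 0.25 in Het and 0.36 in WT. Of all genes tested, 24.4% were higher and 23.4% lower in Het, and 24.8% and 24.7% in WT. The counts by role and list below have the same shares of all genes behind them. The summed CPM of transport kinesins averaged 590 in P11 Het and 551 in P5 Het, and 598 in P11 WT and 539 in P5 WT molars. With only the P11 libraries whose names begin with 2 kept, 4 were called higher in Het. The 3 kinesin-1 heavy chains went in different directions: Kif5b, which is broadly used, rose, and Kif5a and Kif5c, which are known mainly from neurons, fell. In summed CPM of the 3, Kif5b made up 90.7% in P11 Het and 81.7% in P5 Het, and 92.3% in P11 WT and 81.6% in P5 WT, shares that are not per length and were not tested.

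Kif5a (chr10:127225696-127263348, - strand) had 8.18, 7.37, 9.3, 7.41 and 6.07 CPM in P11 Het, against 9.62, 12.5 and 15.8 CPM (lowest, median, highest) in P5 Het. WT molars had 6.52, 6.46, 5.66, 5.04 and 4.36 CPM at P11, against 9.84, 11.3 and 12.9 CPM at P5. No P11 library reached the lowest P5 library of its genotype. The level was 1.67-fold lower in Het (adjusted p = 3.97e-05) and 2.03-fold lower in WT (adjusted p = 5.78e-07). Kif5c (chr2:49619298-49774778, + strand) had 3.46, 3.6, 4.98, 3.81 and 2.5 CPM in P11 Het against a P5 Het median of 8.23 CPM, and 4.59, 4.53, 4.94, 3.48 and 3.5 CPM in P11 WT against a P5 WT median of 8.14 CPM. It was 2.16-fold lower in Het (adjusted p = 5.75e-06) and 1.94-fold lower in WT (adjusted p = 3.59e-05). Kif5b was 105 to 116 CPM in P11 Het, 114 to 125 CPM in P11 WT, 84.2 to 102 CPM in P5 Het and 81.1 to 95.6 CPM in P5 WT, without overlap between the ages in either genotype.

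Neuron markers went both ways beside these genes: of 9 tested, 2 were called higher and 3 lower at P11 in Het, and 2 higher and 4 lower in WT. The list summed to 25.6 to 39.9 CPM at P11 and 23.3 to 34.1 CPM at P5. Schwann cell markers, 8 of 10 called higher and 2 lower in each genotype, summed to 163 to 207 CPM at P11 and 175 to 226 CPM at P5. The part of nerve in the lower Kif5a and Kif5c levels was not tested.

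The kinesin-2 genes, whose products power anterograde transport in cilia, also parted. Kif3b (chr2:153291413-153333390, + strand) had 26.4, 21.4, 22.2, 21.2 and 26 CPM in P11 Het, against 13.3, 14.6 and 16.6 CPM (lowest, median, highest) in P5 Het. In WT molars the level was 26.3, 30.8, 28.2, 22.5 and 22.8 CPM at P11, against 12.4, 15 and 17.7 CPM at P5. The ages were apart in both genotypes, 1.58-fold in Het (adjusted p = 7.45e-06) and 1.76-fold in WT (adjusted p = 3.07e-07). Its partner Kif3a did not rise: the log2 fold change was -0.18 ± 0.08 in Het (adjusted p = 0.0666) and -0.22 ± 0.08 in WT (adjusted p = 0.0205). The WT call was lost without any 1 of P5 WT replicates 1, 4 and 5 and P11 WT replicates 2 and 4, and without the 5 libraries the value was -0.18 ± 0.1 (adjusted p = 0.168). Kif3c, known as another partner of Kif3a in neurons, rose by 0.34 ± 0.11 in Het and 0.51 ± 0.11 in WT. Of its 100-base stretches 42.3% are shared with 1110002L01Rik, whose reads cannot be told apart in unstranded libraries.

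Among further transport kinesins, Kif1c, which carries dense-core vesicles, averaged 8.75 ± 1.61 CPM in P11 Het and 5.34 ± 0.717 CPM in P5 Het. In WT molars Kif1c averaged 11.2 ± 2.48 CPM at P11 and 5.67 ± 0.81 CPM at P5. It rose in both (adjusted p = 0.000302 and 5.64e-06). Kif13a, an endosome motor, rose by 0.43 ± 0.11 in Het and 0.51 ± 0.11 in WT. Kif16b, which moves early endosomes, fell in Het by 0.46 ± 0.1 on the log2 scale (adjusted p = 0.000351) and had -0.03 ± 0.1 in WT (adjusted p = 0.834). Kif1b, a carrier of mitochondria and synaptic vesicle precursors and the second transport kinesin by level per length, had 0.19 ± 0.1 in Het (adjusted p = 0.118) and -0.05 ± 0.1 in WT (adjusted p = 0.721). Kif1a, its neuronal relative, was called in WT (0.32 ± 0.12, adjusted p = 0.0359), a call lost without P5 WT replicate 1, P11 WT replicate 1 or P11 WT replicate 5, and at 0.27 ± 0.15 without the 5 libraries (adjusted p = 0.175). Kif21a was called in Het (0.25 ± 0.1, adjusted p = 0.0355), a call lost without any 1 of P5 Het replicates 1, 5 and 6 and P11 Het replicates 1, 2 and 5, and at 0.21 ± 0.1 without the 5 libraries (adjusted p = 0.108). Its relative Kif21b, which like it slows microtubule growth, rose by 0.43 ± 0.13 in Het and 0.59 ± 0.13 in WT. Kif17, a carrier known from dendrites, had 0.37 ± 0.27 in Het and 0.4 ± 0.26 in WT. It was called in Het without P5 Het replicate 5 (0.66, adjusted p = 0.0298) and without the 5 libraries (0.91 ± 0.27, adjusted p = 0.0117). Kif1b was called in Het without P5 Het replicate 1 or without P11 Het replicate 1, and Kif28 was not called.

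The minus-end transport kinesins fell. Kifc2, known from dendrites, had 10.2, 16.2, 17.2, 14 and 11.9 CPM in P11 Het and 11.4, 10.7, 11.7, 13 and 11.2 CPM in P11 WT. In P5 Het it had 20.1, 23.5 and 25.5 CPM (lowest, median, highest) and in P5 WT 20.5, 22.6 and 28.1 CPM, so the ages did not overlap. It was 1.67-fold lower in Het (adjusted p = 6.52e-06) and 2.04-fold lower in WT (adjusted p = 5.16e-08). Kifc3, which serves apical transport and cell junctions in epithelia, fell by 0.47 ± 0.06 in Het and by 0.54 ± 0.06 in WT on the log2 scale (adjusted p = 5.13e-07 and 5.38e-08).

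**Figure D3:**
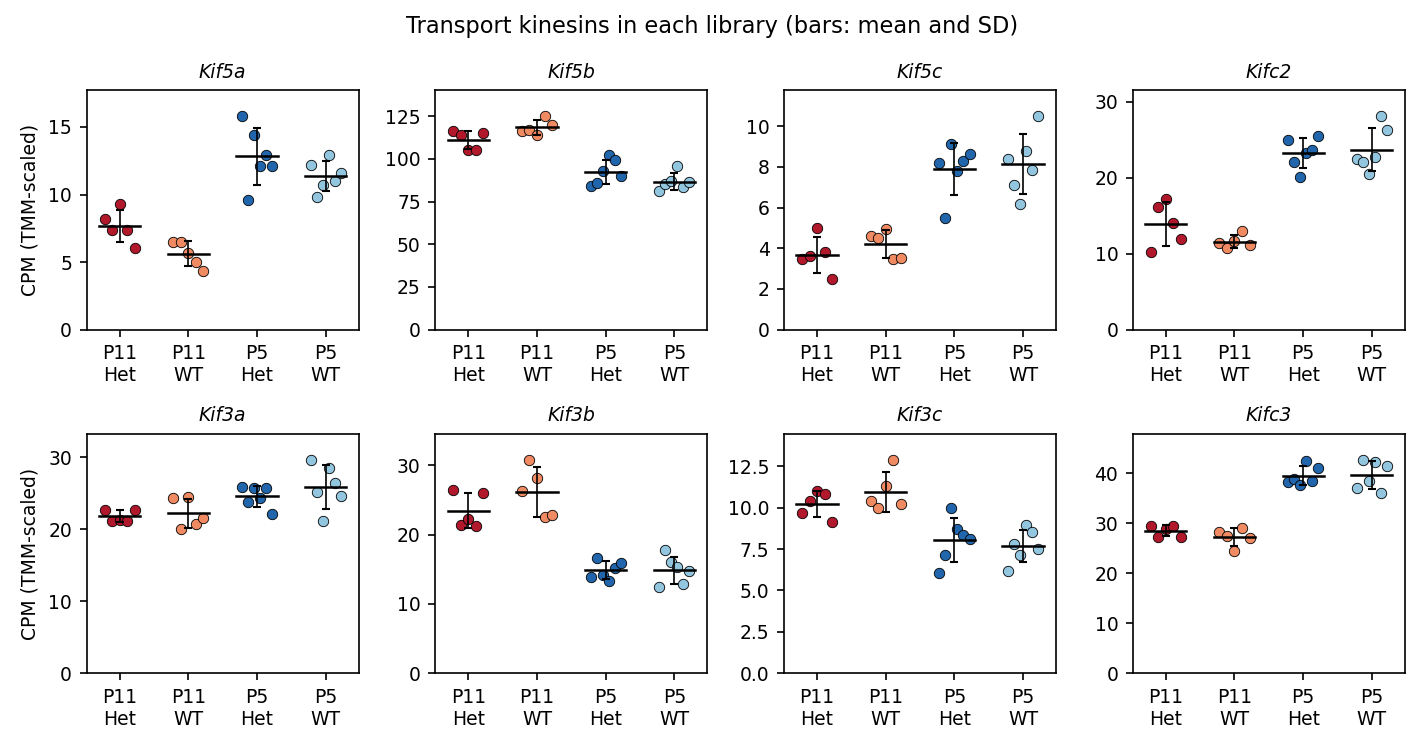
CPM (vertical axes) of Kif5a, Kif5b, Kif5c, Kifc2, Kif3a, Kif3b, Kif3c and Kifc3 in P11 Het, P11 WT, P5 Het and P5 WT libraries, with points for libraries and bars for the mean and SD. Kif5a, Kif5c and Kifc2 are lower at P11, Kif5b and Kif3b are higher, and Kif3a overlaps between the ages.

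Partners of these motors were called in both directions, as all genes tested were. Of 17 kinesin light chains and cargo adaptors, 2 were called higher and 3 lower at P11 in Het, and 5 higher and 4 lower in WT. The light chains Klc4 (-0.65 ± 0.14 in Het, -1.11 ± 0.14 in WT) and Klc2 (-0.44 ± 0.09 and -0.62 ± 0.09) fell, and Trak2, an adaptor for mitochondria, rose (0.92 ± 0.07 and 0.95 ± 0.07). Of 25 dynein and dynactin genes, which form the opposite-going motor, 9 were higher and 8 lower in Het, and 7 and 8 in WT. Dync1i1, a dynein intermediate chain (-1.23 ± 0.1 and -1.2 ± 0.1), and Ndel1, a dynein regulator (-1.13 ± 0.11 and -1.42 ± 0.11), fell, and Hook1, a dynein adaptor, rose (0.83 ± 0.11 and 1.08 ± 0.11).

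Of the 10 other kinesins, 4 were called higher and 1 lower at P11 in Het, and 3 higher and 1 lower in WT. The lower one was Kif7 (chr7:79698098-79715720, - strand), which works at the tip of the primary cilium in Hedgehog signalling. It had 9.46, 11.7, 10.1, 8.26 and 9.06 CPM in P11 Het, against 19, 21 and 30.6 CPM (lowest, median, highest) in P5 Het. WT libraries held 11.9, 10.2, 8.88, 9.48 and 5.66 CPM at P11, against 16.4, 19.6 and 24.3 CPM at P5. The ages did not overlap, and the level was 2.3-fold lower in Het (adjusted p = 7.39e-07) and 2.16-fold lower in WT (adjusted p = 2.14e-06). Of its 100-base stretches 13% are shared with 9330171B17Rik.

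Kif19a (chr11:114765388-114790739, + strand), known in mice to shorten motile cilia, was near the limit of detection at P5. It had 1.37, 0.567, 0.937, 1.47 and 1.55 CPM in P11 Het, against 0.0596, 0.171 and 0.224 CPM (lowest, median, highest) in P5 Het. In WT it had 1.19, 1.25, 1.18, 1.13 and 1.83 CPM at P11, against 0.0557, 0.113 and 0.269 CPM at P5, where 2 to 10 reads stood behind each value in both genotypes. The fitted fold was 7.47 in Het (adjusted p = 1.94e-07) and 9.48 in WT (adjusted p = 3.83e-08). Markers of multiciliated cells went both ways beside it: of 7 tested, 2 were called higher and 3 lower in Het, and 2 higher and 4 lower in WT. The list summed to 10.5 to 15.2 CPM at P11 and 25.7 to 33.3 CPM at P5. The part of such cells in the Kif19a level was not tested.

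Kif19b (chr5:140445645-140495071, + strand) had 36, 43, 17, 103 and 143 counts in the P11 Het libraries and 0 in each P5 Het library. In WT it had 54, 63, 35, 183 and 180 counts at P11 against 4 counts in all over the P5 libraries. It was at least 115-fold higher at P11 in Het, set against a floor of 3 counts over the group, and 142-fold higher in WT over the counts themselves, with adjusted p of 2.4e-06 in Het and 1.19e-06 in WT. At P11 the level went with the number that begins the library name: 2.44 to 4.57 CPM in the 4 libraries with 2 and 0.409 to 1.6 CPM in the 6 with 1. It was 1 of 3 of the 65 genes (4.62%) that these numbers separated, against 5.58% of all genes. The others were Kif13a (29.9 to 34.3 CPM with 2, 35.5 to 38.9 with 1) and Kif1c (6.77 to 8.81 and 8.94 to 14 CPM). With only the P11 libraries of 1 kept, the fitted log2 fold change of Kif19b was 7.81 in Het and 5.91 in WT; with only those of 2 it was 9.77 and 7.72. In WT it was 8.24 without P5 WT replicate 6, which held 3 of the 4 counts. Such fitted values of a gene near 0 are no bound.

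**Figure D4:**
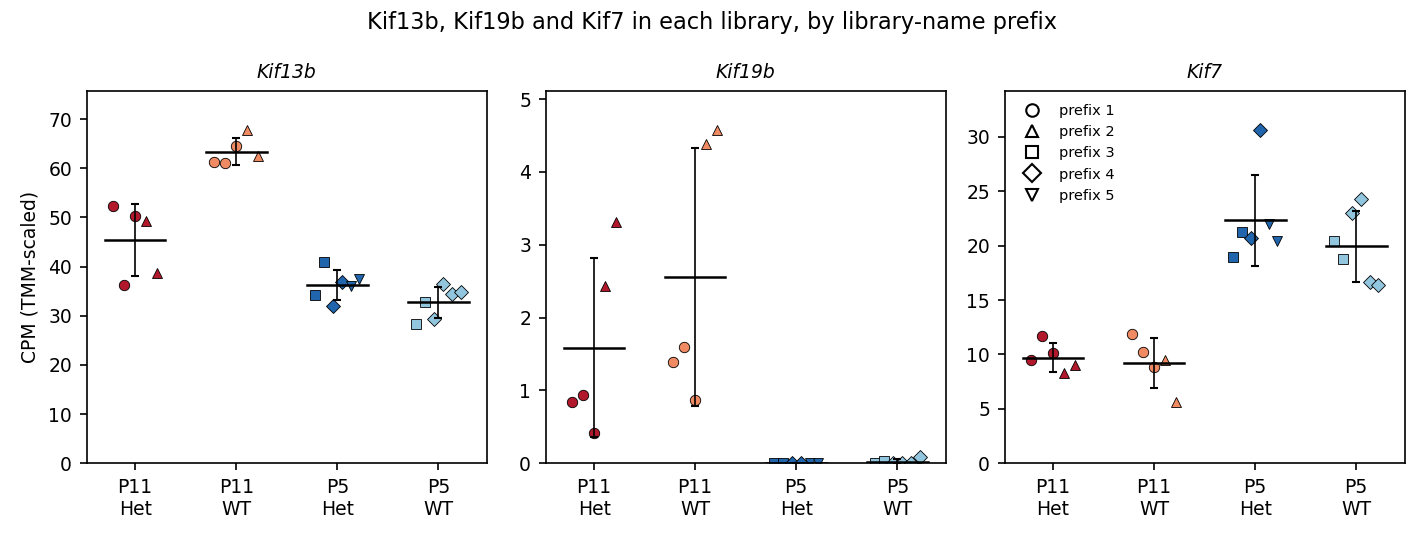
CPM (vertical axes) of Kif13b, Kif19b and Kif7 by group, with the marker shape giving the number that begins the library name. In P11 libraries of both genotypes Kif19b is higher with number 2 than with number 1, while Kif13b at P11 is 36.2 to 52.3 CPM in Het and 61 to 67.7 CPM in WT.

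Kif26b, a kinesin without known motor activity that acts in kidney mesenchyme, rose by 0.42 ± 0.09 in Het and 0.45 ± 0.09 in WT on the log2 scale. Kif2a, a microtubule depolymeraser, was called in Het (0.33 ± 0.09, adjusted p = 0.00537), and had 0.27 ± 0.11 without the 5 libraries (adjusted p = 0.0614). Of its 100-base stretches 21.7% are shared with Dimt1. It had 0.18 in WT (adjusted p = 0.112). Kif26a, Kif9, Kif24, Kif6 and Kif27 were not called in either genotype; Kif26a had 0.2 in Het (adjusted p = 0.0809), called without P5 Het replicate 6, and -0.03 in WT, and Kif6 was called in Het without P5 Het replicate 2. Of 28 intraflagellar transport and ciliogenesis genes, which serve the same cilium as Kif7, Kif3a and Kif3b, 2 were called higher and 9 lower in Het, and 3 and 9 in WT. Ift88 (-0.6 ± 0.1 in Het, -0.37 ± 0.09 in WT) and Ift172 (-0.44 ± 0.07 and -0.39 ± 0.07), subunits of the carrier train that moves outward, fell, and Ift43, of the train that returns, rose (0.74 ± 0.06 and 0.61 ± 0.06).

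Tubulins changed in their mix more than in their sum. Summed alpha tubulins averaged 214 CPM in P11 Het and 228 CPM in P5 Het, and 221 CPM in P11 WT and 246 CPM in P5 WT. Beta tubulins summed to 694 and 658 CPM in Het, and 675 and 677 CPM in WT. Of 5 tested alpha tubulins, 3 were called higher and 1 lower in each genotype, and of 7 beta tubulins 3 were higher and 2 lower in Het, and 2 higher and 2 lower in WT. The genes called lower in both were Tuba1a, Tubb3 and Tubb6, and those called higher in both were Tuba1b, Tuba1c, Tuba4a, Tubb4a and Tubb4b.

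Tuba1a (chr15:98949837-98953703, - strand) had 122, 123, 113, 107 and 93.4 CPM in P11 Het, against 141, 159 and 165 CPM (lowest, median, highest) in P5 Het. WT molars had 114, 130, 124, 114 and 115 CPM at P11, against 163, 173 and 181 CPM at P5. The ages did not overlap, with a 1.4-fold lower level in Het (adjusted p = 1.97e-06) and a 1.45-fold lower level in WT (adjusted p = 4.88e-07). It made up 52% ± 1.55 of summed alpha tubulin CPM in P11 Het and 68.6% ± 1.21 in P5 Het, and 54% ± 1.36 in P11 WT and 70.2% ± 0.748 in P5 WT (SD), a share that is not per length. Its neighbours on chromosome 15, the broadly used Tuba1b (chr15:98931425-98934565, - strand) and Tuba1c (chr15:99029891-99038110, + strand), rose: by 0.33 ± 0.05 and 0.72 ± 0.07 in Het and by 0.28 ± 0.05 and 0.62 ± 0.07 in WT on the log2 scale. Of their 100-base stretches 65.8% for Tuba1a, 73% for Tuba1b and 53.4% for Tuba1c also occur in another gene's transcripts, so how reads were split among them is uncertain.

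Tuba4a (chr1:75214228-75219865, - strand), an alpha tubulin used in platelets and muscle, had 6.95, 8.49, 2.57, 3.19 and 4.61 CPM in P11 Het, against 0.753, 1.16 and 1.36 CPM (lowest, median, highest) in P5 Het. In WT molars the level was 4.28, 5.04, 6.27, 8.09 and 5.86 CPM at P11, against 0.727, 1.05 and 1.26 CPM at P5. Every P11 library stood above every P5 library, 4.63-fold in Het (adjusted p = 1.84e-07) and 5.71-fold in WT (adjusted p = 2.44e-08), with P11 Het libraries spread more widely than P11 WT. Platelet markers were sparse: 5 of 12 were tested, of which 1 was called higher and 2 lower in Het and 1 of each in WT. The list summed to 11 to 19.5 CPM at P11 and 27.2 to 35.5 CPM at P5. Of 14 tested muscle markers 5 were called higher in Het and 8 in WT, and the P11 sum was 22.9 to 152 CPM in Het and 30.5 to 57.4 CPM in WT; their part in Tuba4a was not tested. Of Tuba4a's 100-base stretches 46.7% are shared with Stk16.

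Tuba8, an alpha tubulin of muscle and testis, was the only gene of the 65 that was called under an alternative in the direction opposite to its fit over all libraries. It had 0.372, 2.66, 0.601, 0.663 and 0.51 CPM in P11 Het and 0.232, 0.484, 0.541, 3.26 and 0.914 CPM in P11 WT, against a median of 1.03 CPM in P5 Het and 0.974 CPM in P5 WT. The high values belong to P11 Het replicate 2 and P11 WT replicate 4, the libraries of their groups with the highest summed oral keratinocyte markers (1060 and 1790 CPM) and the highest summed muscle markers (152 and 57.4 CPM). The part of either in these values was not tested. With all libraries the log2 fold change was -0.3 ± 0.53 in Het (adjusted p = 0.674) and 0.04 ± 0.53 in WT (adjusted p = 0.959). Without the 5 libraries it was called lower at P11 in both, at -1.08 ± 0.37 in Het (adjusted p = 0.0239) and -1.33 ± 0.39 in WT (adjusted p = 0.0099).

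Among beta tubulins, Tubb4b (chr2:25222160-25224702, - strand), a broadly used isotype that is also found in cilia, had 40, 38.5, 35.6, 35.8 and 31.9 CPM in P11 Het, against 18.9, 20.3 and 21.8 CPM (lowest, median, highest) in P5 Het. WT libraries held 36.4, 37.8, 35.9, 39.8 and 36.7 CPM at P11, against 20.7, 22.4 and 22.8 CPM at P5. The ages lay far apart, 1.79-fold in Het (adjusted p = 3.73e-11) and 1.68-fold in WT (adjusted p = 2.45e-10). Of its 100-base stretches 30.6% are shared with other transcripts, mostly of the pseudogene Tubb4b-ps1. Tubb3 (chr8:123411424-123422015, + strand), the class III isotype of neurons, had 18.2, 24.5, 14.9, 18.3 and 15.8 CPM in P11 Het, against 23.4, 27 and 29.3 CPM in P5 Het. In WT it had 16.2, 20.1, 20.6, 21.3 and 17.5 CPM at P11, against 26.5, 30.4 and 35.6 CPM at P5. Only P11 Het replicate 2, at 24.5 CPM, reached into its P5 range, and Tubb3 fell by 0.54 ± 0.11 in Het (adjusted p = 0.000269) and 0.68 ± 0.11 in WT (adjusted p = 1.72e-05) on the log2 scale.

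Tubb6, a class V isotype, fell by 0.28 ± 0.06 in Het and 0.33 ± 0.06 in WT. Its share of summed beta tubulin CPM was 23.4% in P11 Het and 30% in P5 Het, and 22% in P11 WT and 27.6% in P5 WT. Tubb5, the most abundant, had 0.18 in Het (adjusted p = 0.0871) and 0.09 in WT (adjusted p = 0.424), and was called in Het without P5 WT replicate 1 or without P5 Het replicate 1. Tubb2a rose in Het (0.38 ± 0.1, adjusted p = 0.00438) and had 0.2 in WT (adjusted p = 0.114), where it was called without P11 WT replicate 3. Tubb2b, its close relative, had 0 in Het (adjusted p = 0.999) and -0.22 in WT (adjusted p = 0.288), and -0.39 ± 0.15 in WT without the 5 libraries (adjusted p = 0.0445). These genes share 36.9% of the stretches of Tubb2a and 27.7% of those of Tubb2b with other transcripts, mostly each other's, so their counts are uncertain. Tubb4a, a neural isotype, was called higher in both (0.38 ± 0.15 and 0.42 ± 0.15). The call was lost in Het without any 1 of P5 Het replicates 1, 2 and 6 and P11 Het replicates 1 and 4, and in WT without P11 WT replicate 2 (adjusted p = 0.0725) or 3 (adjusted p = 0.0758). Tubg1, the gamma tubulin that nucleates microtubules at centrosomes, rose in Het (0.43 ± 0.08, adjusted p = 0.000146) and had 0.05 in WT (adjusted p = 0.618). Tubg2, its brain-enriched relative, was not called. Of 25 genes of tubulin folding and nucleation, 9 were called higher and 4 lower in Het, and 5 higher and 7 lower in WT. Tbcel, related to the folding cofactor E, rose (0.54 in Het, 0.72 in WT), and Cct7, a subunit of the chaperonin that folds tubulin, fell (-0.27 ± 0.06 and -0.4 ± 0.06).

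Among the ligases, the widest age differences lay in 2 glutamylases that moved in opposite directions. Ttll11 (chr2:35751241-35979913, - strand), a glutamylase that lengthens chains on tubulin, was 22.1-fold lower at P11 in Het and 24.9-fold lower in WT. Ttll7 (chr3:146852367-146984009, + strand), a glutamylase that prefers beta tubulin, was 6.45-fold higher in Het and 6.38-fold higher in WT. Ttll11 had 0.535, 3.8, 0.769, 0.757 and 0.881 CPM in P11 Het, from 23, 174, 32, 32 and 38 counts, against 25.2, 29.2 and 38.7 CPM (lowest, median, highest) in P5 Het. Its WT values were 0.747, 1.04, 1.01, 0.744 and 1.47 CPM at P11, from 29, 41, 41, 31 and 58 counts, against 20.3, 26.1 and 28 CPM at P5. The ages did not come near each other, and P11 Het replicate 2 stood above the other P11 libraries. The log2 fold change was -4.46 ± 0.34 in Het (adjusted p = 1.25e-10) and -4.64 ± 0.35 in WT (adjusted p = 1e-10), and -5.35 in Het without P11 Het replicate 2.

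Ttll7 had 11.6, 11.5, 11.2, 12.8 and 12.3 CPM in P11 Het, against 1.29, 1.76 and 2.81 CPM (lowest, median, highest) in P5 Het. WT molars had 12.1, 12.7, 13.5, 17.9 and 16.9 CPM at P11, against 1.68, 2.11 and 3.66 CPM at P5. The ages did not overlap, and the adjusted p was 2.88e-11 in Het and 2.27e-11 in WT. Of the summed CPM of these ligases, Ttll11 made up 9.57% ± 8.55 in P11 Het and 94.1% ± 2.22 in P5 Het, and 6.47% ± 1.62 in P11 WT and 91.7% ± 2.35 in P5 WT (SD). The share is not per length and was not tested. Neither gene shares a 100-base stretch with another gene's transcripts. Ameloblast stage markers moved with them: the secretory list summed to 20600 to 47500 CPM in P11 Het, 19500 to 28300 in P11 WT, 127000 to 167000 in P5 Het and 158000 to 174000 in P5 WT. On that list 10 of 12 were called lower at P11 and 2 higher in each genotype. The maturation list summed to 60100 to 84300, 60500 to 72000, 1090 to 1870 and 1530 to 2750 CPM in the same group order, with 12 of 14 called higher and 1 lower. The part of ameloblast stage in the levels of these ligases was not tested.

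**Figure D5:**
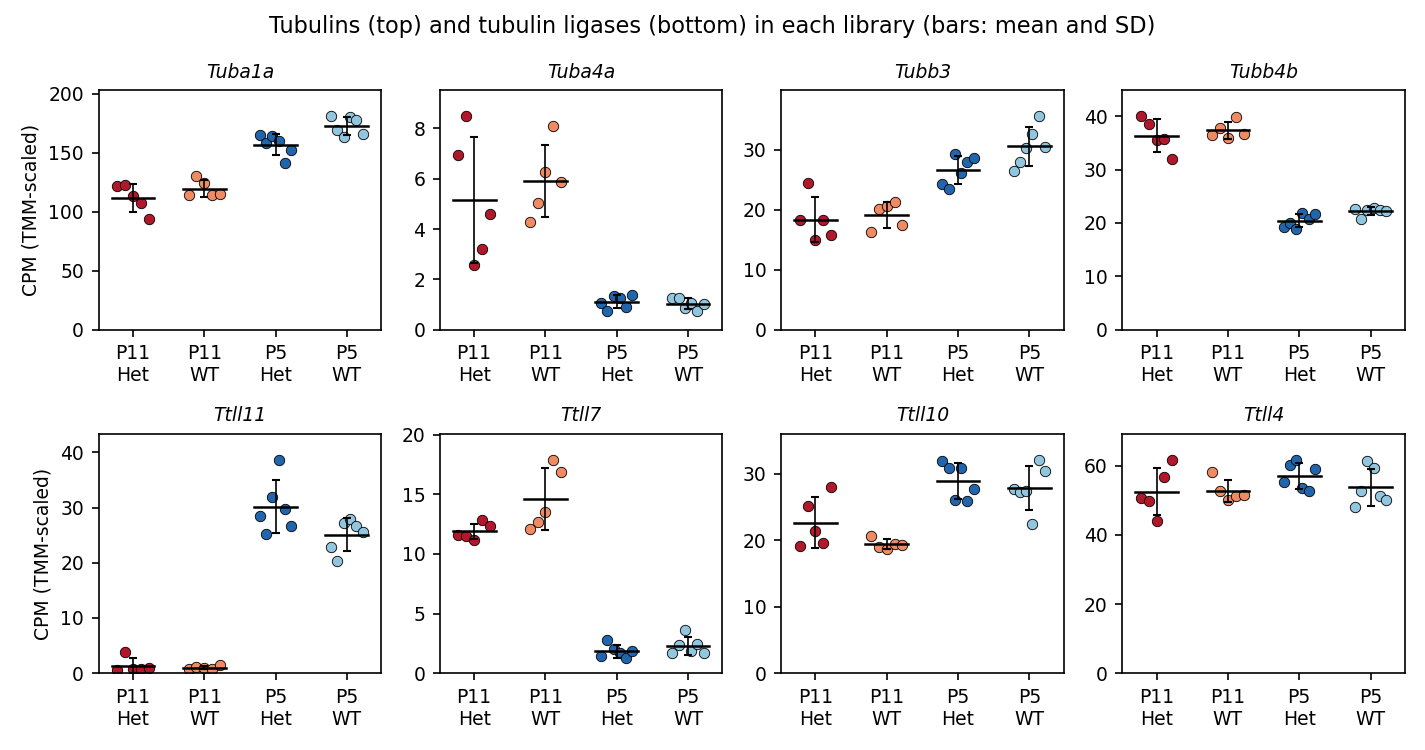
CPM (vertical axes) of Tuba1a, Tuba4a, Tubb3, Tubb4b, Ttll11, Ttll7, Ttll10 and Ttll4 in P11 Het, P11 WT, P5 Het and P5 WT libraries; points are libraries and bars give the mean and SD. Ttll11 is 0.535 to 3.8 CPM at P11 and 20.3 to 38.7 CPM at P5, Ttll7 is 11.2 to 17.9 CPM at P11 and 1.29 to 3.66 CPM at P5, and Ttll4 overlaps between the ages.

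Of 9 tested ligases, 1 was called higher and 3 lower in Het, and 1 higher and 4 lower in WT, with medians of -0.21 and -0.23. Ttll10 averaged 22.6 ± 3.85 CPM in P11 Het and 28.9 ± 2.63 CPM in P5 Het (adjusted p = 0.00449), and 19.4 ± 0.795 CPM in P11 WT and 27.9 ± 3.3 CPM in P5 WT (adjusted p = 9.17e-05). Ttll12, a divergent TTLL protein, fell by 0.34 ± 0.09 in Het (adjusted p = 0.00292) and 0.24 ± 0.09 in WT (adjusted p = 0.0307). Ttll3, which starts glycine chains, had -0.21 ± 0.09 in Het (adjusted p = 0.0706) and was called lower in WT at -0.23 ± 0.09 (adjusted p = 0.0463). The WT calls of Ttll12 and Ttll3 were fragile: that of Ttll12 was lost without any 1 of 10 libraries (P5 WT replicates 1 to 5, P5 Het replicate 1 and P11 WT replicates 1, 2, 3 and 5), up to an adjusted p of 0.146 without P5 WT replicate 4. That of Ttll3 was lost without any 1 of the 6 P5 WT libraries, among others, with -0.16 ± 0.11 without the 5 libraries (adjusted p = 0.267). In Het, Ttll3 was called without P11 Het replicate 1. The WT count of ligases called lower was 2 without any 1 of P5 WT replicates 1 to 5, P5 Het replicate 1 and P11 WT replicate 2. Ttll4, which starts glutamate chains, had -0.12 in Het and -0.03 in WT, and Ttll1, Ttll5 and Ttll13 were not called either. Ttll13 was called lower in WT without P11 WT replicate 5 (-0.79) and without the 5 libraries (-0.88 ± 0.32, adjusted p = 0.0357), and Ttll1 in Het without P11 Het replicate 4.

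Enzymes that modify tubulin outside the TTLL family were also called in both directions, as all genes tested were. Of 19 tested, 6 were called higher and 5 lower in Het, and 7 and 7 in WT. The carboxypeptidase Vash2 (1.11 in Het, 1.02 in WT) and its partner Svbp (0.58 and 0.7), which remove the terminal tyrosine, rose. Agbl5, which trims glutamates (-0.87 and -0.78), Hdac6, a tubulin deacetylase (-0.63 and -0.77), and Atat1, the tubulin acetyltransferase (-0.54 and -0.5), fell. Of 32 tested microtubule-associated proteins, 12 were higher and 9 lower in Het, and 10 and 11 in WT. Mapt, the neuronal protein tau (-2.51 ± 0.24 and -3.18 ± 0.25), and Clip2, a plus-end linker (-1.69 ± 0.14 and -1.94 ± 0.14), fell. Stmn2, a tubulin-binding protein of neurons (1.46 ± 0.15 and 1.65 ± 0.15), and Camsap2, a minus-end protector (0.63 ± 0.06 and 0.67 ± 0.06), rose.

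Between genotypes none of the genes was called. At P5, 0 of the 65 were called, where 0.26% of all genes were (0.0651% higher, 0.195% lower in Het). At P11, 0 were called, against 0.0279% of all genes (0.0232% higher, 0.00465% lower). For the interaction of genotype with age 0 were called, against 0.0139% (0.0139% higher, 0% lower). So few of all genes were called that 0 of 65 does not set these genes apart. At an unadjusted p under 0.05 there were 10 at P5 (2 higher, 8 lower in Het), 15.4% of the 65 against 6.22% of all genes. There were 9 at P11 (7 higher, 2 lower), 13.8% against 9.85%, and 6 for the interaction, 9.23% against 10.3%. DESeq2 called 0 at P5, 1 at P11 and 1 for the interaction, and limma-voom called 0, 1 and 0. The number of all genes called also depended on the method. With DESeq2 it was 43 higher and 90 lower at P5, 70 and 37 at P11, and 41 and 15 for the interaction. With limma-voom it was 18 and 41, 5 and 15, and 3 and 0. The median log2 fold change of Het over WT was -0.03 at P5 and -0.04 at P11.

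The gene with the smallest p at P11 was Kif13b (chr14:64647265-64809617, + strand), a kinesin-3 motor that binds the scaffold protein DLG1. It had 52.3, 36.2, 50.2, 49.2 and 38.7 CPM in P11 Het, against 61.2, 61, 64.6, 67.7 and 62.5 CPM in P11 WT. In P5 Het it had 32, 36.4 and 40.9 CPM (lowest, median, highest), against 28.4, 33.6 and 36.4 CPM in P5 WT. At P11 every Het library lay below every WT library, and at P5 the genotypes overlapped. No other of the 65 genes separated the genotypes at P11, and the share of all genes that did was not counted. The log2 fold change of Het over WT at P11 was -0.48 ± 0.09 with an adjusted p of 0.0543, above the threshold of 0.05, and the interaction was -0.63 ± 0.13 with an adjusted p of 0.0947. DESeq2 called the P11 difference (adjusted p = 0.00152) and so did limma-voom (0.0296); over 32 alternatives the adjusted p ran from 0.00152 to 0.513, and the log2 fold change from -0.57 to -0.39. It was called without P11 Het replicate 1 (adjusted p = 0.0372) and without P11 Het replicate 4 (0.0449), and was -0.39 ± 0.11 without the 5 libraries (0.513). Within the P11 libraries whose names begin with 1 the difference was -0.43 ± 0.13 (adjusted p = 0.189) and within those that begin with 2 it was -0.57 ± 0.15 (0.151). From P5 to P11 Kif13b rose in both genotypes, 1.25-fold in Het (adjusted p = 0.00462) and 1.94-fold in WT (adjusted p = 4.09e-09).

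Kif5a had the next smallest p at P11, at 0.45 ± 0.13 (adjusted p = 0.292), with 6.07 to 9.3 CPM in Het and 4.36 to 6.52 CPM in WT libraries. The other 7 with an unadjusted p under 0.05 were Kif1c (-0.35 ± 0.15), Kifc2 (0.26 ± 0.12), Tuba5-ps (0.95 ± 0.43), Ttll10 (0.22 ± 0.1), Tubb6 (0.13 ± 0.06), Ttll3 (0.21 ± 0.1) and Kif26a (0.2 ± 0.1), with adjusted p of 0.453 to 0.507 and overlapping groups. At P5 the smallest p belonged to Tubg1 (-0.22 ± 0.08, adjusted p = 0.586), Kif20b (-0.3 ± 0.12, 0.64) and Kif16b (0.23 ± 0.09, 0.677), and their genotype groups overlapped. For the interaction Kif13b was followed by Kif16b (-0.44 ± 0.14, adjusted p = 0.354) and Tubg1 (0.38 ± 0.12, 0.354). Of the 13 mitotic kinesins, 11 had a negative log2 fold change of Het over WT at P5 (median -0.12) and 9 at P11. Over all genes tested, 11019 were negative and 10488 positive at P5, and 11125 and 10385 at P11. Sign counts were not tested. Kif22 (-0.22 ± 0.1) and Kifc1 (-0.31 ± 0.14) were among those with an unadjusted p under 0.05 at P5. Of the 30 other division genes 26 were negative at P5, and 1 was called, the spindle checkpoint kinase Ttk (-0.46 ± 0.09, adjusted p = 0.0268). Of the genes of tubulin folding, Cct2, another chaperonin subunit, was called lower in Het at P5 (-0.34 ± 0.07, adjusted p = 0.0321).

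The 5 genes with too few counts for a test were Ttll9 (93 counts in all, 18 libraries with a count), Tubb1, the beta tubulin of platelets (60 counts, 17 libraries), Tuba3b (16 counts, 4 libraries), the antisense RNA Kif16bos (37 counts, 14 libraries) and the pseudogene Tubb4b-ps1 (146 counts, 22 libraries). Of the 3 pseudogenes and antisense RNAs only Tuba5-ps was tested: it had -0.89 ± 0.37 in Het (adjusted p = 0.053) and was called lower at P11 in WT (-2.58 ± 0.4, adjusted p = 1.04e-05). In Het it was called in 11 of 31 alternatives, among them DESeq2 (-0.9, adjusted p = 0.0341), limma-voom (-0.95, 0.0471) and without the 5 libraries (-1.17 ± 0.39, 0.0231). The WT value ran from -3.92 with only the P11 libraries whose names begin with 2 to -2.08 without the 5 libraries. In WT its level ranged over 0.0508 to 0.412 CPM at P11 and 0.779 to 2.26 CPM at P5.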

How the data were processed

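Per the submitters' processing notes, reads were handled with STAR 2.7.3a on GRCm38, and DESeq2, edgeR and limma are named there; per the labels' protocols the libraries were made with Nextera XT, which keeps no strand. The authors deposited a table of raw counts per gene (55439 features) and a table of signal for 28711 features that recomputation from those counts showed to be CPM after TMM scaling, within a relative deviation of 4.86e-15. The deposited counts were used for all tests. Non-mouse features (18) took at most 0.000457% of counts and were left out. No further filter, aligner setting or annotation release is given in the sources used here.

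Genes were kept by filterByExpr (minimum count 10, minimum total 15), and edgeR 4.0.16 in R 4.3.3 was fitted with TMM scaling over the 4 age and genotype groups and 22 libraries (18 residual degrees of freedom, common dispersion 0.0381). The 5 comparisons were P11 against P5 in each genotype, Het against WT at each age and their interaction. P-values were Benjamini-Hochberg adjusted over 21510 genes, and SE is the log2 fold change over the root of F. The code was checked on data with known answers. A floor of 3 counts equals 0.0654 to 0.0893 CPM in a library, which covers counting error only, as reads carry no molecular identifiers. Replicates of a group differed by more than sampling noise (chi-square per degree of freedom 6.94 to 101). Exon lengths and positions are those of GENCODE on GRCm38, and promoters are RefSeq's on GRCm38.p6, with 53 of the 70 genes matched. Alternatives were DESeq2 1.42.0, limma-voom 3.58.1, DESeq2 size factors, no filter, only the groups compared, blocks, leaving out libraries and subsets by library name.

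The genes and all gene lists were chosen with earlier results of these data known. The named genes were, per role and age comparison, up to 4 called in each direction by smallest p plus the one with the largest p among the 5 highest. They were also, per genotype comparison, the 10 with the smallest p, the 2 highest per length in each role, and up to 4 per list. Further genes are named where a call turned on 1 library.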

Additional observations from a re-analysis of the deposited data

Results flagged for a closer look

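Single libraries stood apart from their group in 13 of 216 groups of 5 or 6 libraries examined, by Dixon's gap. About 1 in 20 is flagged by chance. At P11, Ttll11 was 3.8 CPM in P11 Het replicate 2 where the other P11 Het libraries had 0.535 to 0.881 CPM, and Tuba8 was 2.66 CPM in the same library (others 0.372 to 0.663) and 3.26 CPM in P11 WT replicate 4 (others 0.232 to 0.914). Kif19a was 1.83 CPM in P11 WT replicate 5 (others 1.13 to 1.25), and Tubb6 was 161 CPM in P11 WT replicate 2 (others 143 to 147). P11 Het replicate 2 and P11 WT replicates 4 and 5 had the highest summed oral keratinocyte markers, and the part of those cells in these values was not tested.

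At P5, Kif13a was 32 CPM (others 23.9 to 25.8) and Kif5c 5.48 CPM (others 7.8 to 9.14) in P5 Het replicate 2. Kif7 was 30.6 CPM in P5 Het replicate 4 (others 19 to 22), and Ttll5 was 31.7 CPM in P5 Het replicate 5 (others 27.5 to 29). In P5 WT, Kif26b was 52.6 CPM (others 36.8 to 42.2) and Tubb4b 20.7 CPM (others 22.3 to 22.8) in replicate 2. Kif19b was 0.0852 CPM in replicate 6 (others 0 to 0.0269), a value of 3 counts, and the summed beta tubulins were 753 CPM in replicate 1 (others 637 to 680).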

How the results depend on the processing

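Over the alternatives run for 160 combinations of gene and comparison, 4833 of 4960 values kept their side of the threshold. Of the rest, 84 lost the call, 42 gained one, and 1 was called in the opposite direction. That 1 was Tuba8 at P11 over P5 in WT, -1.33 without the 5 libraries with raised markers. Values that were not called could change sign and still count among the 4833, as for Kif27 in WT (-0.36 to 0.41). In Het 35 of 43 age calls and in WT 33 of 40 held under every alternative. The members called lower in Het than WT at P11 numbered 1 (Kif13b) with DESeq2, limma-voom and the library-name block, against 0, and 0 to 1 with a library left out. Of all genes 37 were called lower at P11 with DESeq2, 15 with limma-voom and 38 with that block, against 1. For the interaction 1 member was lower with DESeq2, against 0. Transport kinesins called higher at P11 in Het numbered 4 with only the P11 libraries beginning with 2, against 8. The causes were not tested. Correlations between libraries of the same replicate number in different groups ran from -0.165 to 0.208 (median -0.014), most of these pairs lying across the ages. Between Het and WT they were 0.037 to 0.208 at P5 and -0.134 to 0.106 at P11. Whether the number pairs libraries within P5 is therefore not settled. With the replicate block 30 members were called higher and 13 lower at P11 in Het, and 25 and 13 in WT. Depth limits the genes near 0, such as Kif19b. Its fitted log2 fold change ran from 6.47 to 9.98 in Het and from 5.91 to 8.24 in WT. That of Tuba8 ran from -1.15 to 0.03 in Het and from -1.33 to 0.99 in WT. Tuba8 had 122 counts in P11 Het replicate 2 and 136 in P11 WT replicate 4. The other P11 libraries had 9 to 36. The cause of its range was not tested.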
